A study of Mus musculus with 8 samples.

Results

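MHC class II genes were followed across the cells of mouse heart, liver and kidney allografts and of the recipients' blood. The 10 genes were H2-Aa, H2-Ab1, H2-Eb1, Cd74, H2-DMa, H2-DMb1, H2-DMb2, H2-Oa, H2-Ob and Ciita, of the 24405 genes listed in the series, and all 10 were listed in each of the 8 count tables. They were chosen by name, for their place in class II antigen presentation, with no threshold on their values. The libraries held peripheral blood mononuclear cells (PBMCs) of heart, liver and kidney recipients, infiltrating cells isolated from the 3 grafts on a density gradient (TILs), and parenchymal cells (PCs) of liver and kidney grafts, 1 library each. All were taken 7 days after transplantation, and every label gives male BALB/c animals of 8 weeks. By the study's methods the donors were BALB/c and the recipients C57BL/6, so a graft library can hold cells of both strains, which were not separated here. The methods name 2 recipients per organ and do not say whether they were pooled into a library. Each mRNA molecule caught by Microwell-seq, a method that pairs single cells with barcoded beads in small wells, carried a unique molecular identifier (UMI).

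Class II molecules display peptides from the endosomal route to CD4+ T cells, and in transplantation they are targets of and signals to the recipient's T cells. An alpha and a beta chain form the peptide groove (H2-Aa with H2-Ab1 for I-A, and H2-Eb1 with the Ea chain for I-E). The invariant chain Cd74 guards the groove on its way to the endosome. H2-DM, made of H2-DMa with H2-DMb1 or H2-DMb2, then exchanges the remnant of Cd74 for a peptide. H2-O, made of H2-Oa and H2-Ob, restrains H2-DM and is known from B cells, thymic epithelium and some dendritic cells. Ciita is the coactivator that switches these genes on, through a protein complex bound to their X and Y boxes. B cells, dendritic cells and activated macrophages carry class II at rest or after stimulation, mouse T cells do not make it, and epithelium and endothelium can acquire it under interferon gamma.

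8 of the 10 genes lie within 224 kb of chromosome 17 in GRCm38, from H2-Oa (chr17:34092340-34095234) to H2-Eb1 (chr17:34305867-34316674). Ciita lies on chromosome 16 (chr16:10480059-10528418) and Cd74 lies apart from both. RefSeq promoter windows (GRCm38.p6, 250 bases before to 50 after a start) matched 7 of the 10 genes by symbol. Stretches of 5 of these windows are shown because they carry the elements that class II genes share, in a chain gene of each of I-A and I-E, in both beta genes of H2-DM and in H2-Ob. Capitals mark GATTGG, the core of the Y box, and AACNNATGATGC, an X box form. This form was written here from the windows of H2-Eb1, H2-DMb1, H2-DMb2 and H2-Ob, with N where they differ. All 5 stretches are 66 bases, 5′ to 3′ on the gene's strand.
H2-Aa, chr17:34287852-34287917, minus strand: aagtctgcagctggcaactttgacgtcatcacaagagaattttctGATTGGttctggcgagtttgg
H2-Eb1, chr17:34305762-34305827, plus strand: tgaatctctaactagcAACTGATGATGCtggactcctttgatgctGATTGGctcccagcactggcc
H2-DMb1, chr17:34153084-34153149, plus strand: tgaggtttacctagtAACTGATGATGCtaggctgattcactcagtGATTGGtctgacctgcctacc
H2-DMb2, chr17:34145113-34145178, plus strand: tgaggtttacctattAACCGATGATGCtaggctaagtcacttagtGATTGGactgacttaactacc
H2-Ob, chr17:34238802-34238867, plus strand: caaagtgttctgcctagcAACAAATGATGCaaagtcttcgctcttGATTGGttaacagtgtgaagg
On either strand GATTGG stood in windows of all 7 genes (7 of their 8 windows), against 16.1% of 32851 windows genome-wide. The longer form stood in 13 windows (0.0396%), and 4 of them are those of H2-Eb1, H2-DMb1, H2-DMb2 and H2-Ob. It was written from these 4, so its presence in them was fixed beforehand. H2-Aa, H2-DMa and H2-Oa lack this exact form, and other X box forms were not searched. The marked motifs do not overlap, and 15 to 18 bases lie between them. H2-DMb1 and H2-DMb2 had the same spacing of 18 bases. These matches describe the letters and not binding.

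The 8 tables held 10000 barcodes each and 62080306 UMIs in all, from 3418722 to 19171264 per library. 47542 cells reached the minimum of 500 UMIs, between 795 in kidney PC and 10000 in liver PC, with median depths of 581 to 1502 UMIs. Pairs of libraries shared 123 to 617 barcodes. The TIL library labelled heart held liver genes (Alb, Apoa1, Ttr and Serpina1c) at 249 CPM (UMIs per 1000000 UMIs of the library or class) and the TIL library labelled liver held none of their UMIs, while heart genes stood at 22.8 and 102 CPM. Both libraries are therefore named by their labels only. With 1 library per condition there is no test between conditions. Ranges in parentheses are exact 95% intervals, which cover counting error only and not the spread between animals.

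Cells were assigned by a few marker UMIs, and cells that met more than 1 assignment were left aside. These were 13577 T cells (Cd3d, Cd3e and Cd3g), 628 B cells (Cd79a and Cd79b), 1747 C1q-high and 3277 C1q-low macrophages (Csf1r, split at 5 UMIs of C1qa, C1qb and C1qc), 703 Kupffer-gated cells (Clec4f or Cd5l), 82 endothelial and 151 tubule cells. 4132 cells were mixed and 18217, the largest class, met no gate. Cells with no gate held 13.1% (liver PC) to 65.1% (kidney PBMC) of the class II UMIs of a library. Mixed cells held a further 2.23% (kidney PBMC) to 31.4% (liver PC), in liver PC more than any class described. Much of the class II RNA thus lay outside the classes described. All 6 B cell markers not used in the gate were at least 2-fold over T cells in the B cells of heart PBMC, liver PBMC and liver PC. Of 5 further macrophage markers, C1q-high cells met this for 3 in the TIL library labelled heart and for 5 in the one labelled liver and in liver PC. All 5 further Kupffer markers were so in both Kupffer-gated groups, and 4 of 5 tubule markers in both kidney libraries. Of the B cell markers, Pax5 did not pass in heart PBMC and liver PC with the minimum of 10 UMIs used below. A minority of the Kupffer-gated cells carried most of the marker Vsig4, which had a UMI in 35 of 359 cells of the TIL library labelled heart and 40 of 343 of liver PC. In the former it stood at 588 CPM in 78 cells with a Clec4f UMI and 57.2 CPM in 281 with Cd5l alone. The C1q-low class of heart PBMC met this for only 1 of 5 macrophage markers and carried neutrophil markers at 182985 CPM (T cells 127812), and that of kidney PC also met it for 1 of 5, so both are called by their gate only.

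Class II RNA was found in every class, T cells included, and its level in T cells served as the background of each library. Summed over the 10 genes it was 489 CPM in T cells of kidney PBMC, 2009 CPM in those of heart PBMC and 4213 CPM in those of liver PBMC. T cells of the graft libraries stood higher, at 11674 CPM in the TIL library labelled heart, 16926 in the one labelled liver, 5390 in kidney TIL, 5321 in liver PC and 16356 in kidney PC. With every cell thinned to 500 UMIs, 76.6% (75.3% to 77.8%) of liver PC T cells still held a class II UMI (94.2% unthinned), and the corresponding share in kidney PBMC was 16.3% (12.6% to 20.6%, 31.1% unthinned). Barcodes under 500 UMIs stood above the T cells in all 7 libraries that hold any, from 1978 CPM in kidney PBMC to 25054 CPM in kidney PC, so the T cells give the lower of 2 readings of the background. These barcodes may hold shallow cells as well as RNA from outside cells, and the 2 were not told apart. Their level was 16904 CPM against 17258 CPM in all passing cells of the TIL library labelled heart. It was 8919 against 9304 CPM in liver PBMC and 16924 against 12141 CPM in kidney TIL. A level near that of either reading is not called above background, which does not show that it comes from outside the cells.

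**Figure D1:**
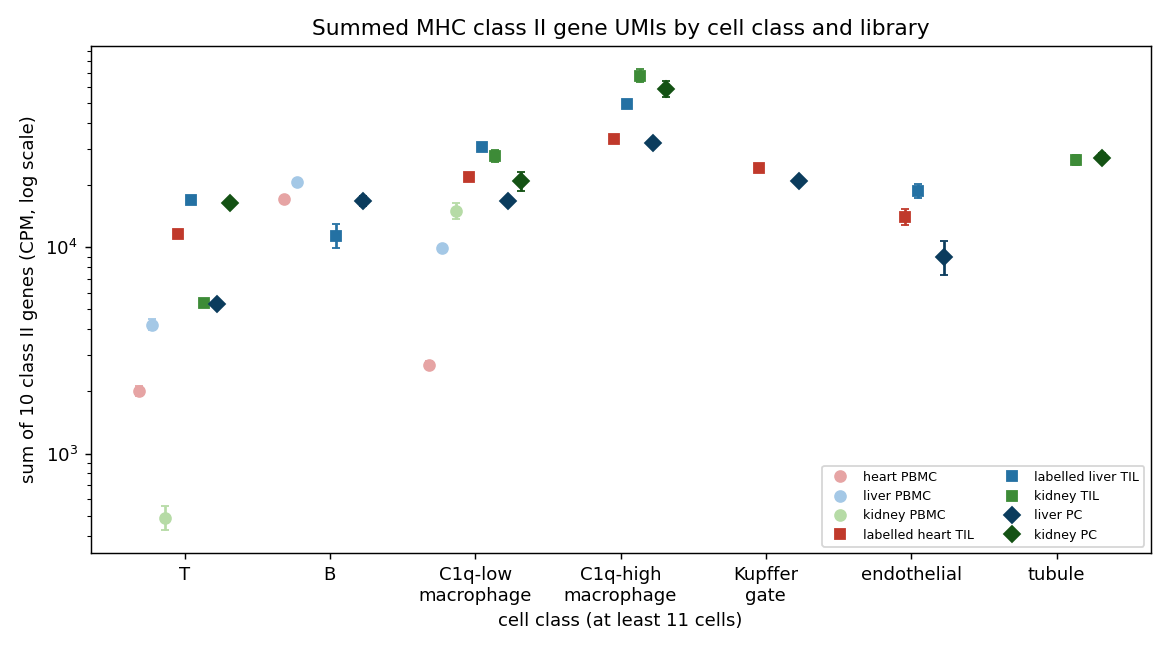
Summed CPM of the 10 class II genes (log axis) in each cell class, 1 point per library with its exact 95% Poisson interval, for classes of at least 11 cells. T cells range from 489 to 16926 CPM, and C1q-high macrophages, at 32211 CPM or more, stand above the T cells of every library.

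B cells held the most class II RNA among the classes of at least 20 cells of both heart and liver PBMC. Heart PBMC gave a sum of 17166 CPM (16612 to 17735, 241 cells), liver PBMC 20677 CPM (20131 to 21234, 331 cells) and liver PC 16848 CPM (15897 to 17840, 35 cells). These were 8.54-fold, 4.91-fold and 3.17-fold over T cells of the same library, so all 3 libraries with at least 20 B cells passed 2-fold (2 of 4 with mixed cells kept). Barcodes under 500 UMIs, which liver PC lacks, held 3574 and 8919 CPM in the blood libraries of heart and liver, and B cells passed 2-fold over them in both. The liver PC value joins 13 cells with plasma cell genes to 22 without, which held 26379 CPM (24581 to 28275). Without such cells heart PBMC stood at 17231 CPM and liver PBMC at 20808 CPM, so liver PC was then the highest of the 3. After thinning, Cd74 was read in 84.2% of B cells and 34.2% of T cells in heart PBMC (90.9% and 51.5% unthinned). Median depths of those cells were 788 and 919 UMIs.

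In CPM, C1q-high macrophages held more than these B cells. Their sum was 33677 CPM (33150 to 34209, 399 cells) in the TIL library labelled heart, 49773 CPM (49257 to 50293, 621 cells) in the one labelled liver and 32211 CPM (31935 to 32489, 687 cells) in liver PC. Over T cells these were 2.88-fold, 2.94-fold and 6.05-fold, and all 3 libraries with at least 20 such cells passed 2-fold (1 of 1 without the TIL libraries labelled heart and liver). Over barcodes under 500 UMIs the TIL libraries labelled heart and liver gave 1.99-fold and 2.13-fold, so 1 of 2 passed. The kidney libraries gave the highest values from few cells, 68171 CPM (63289 to 73330, 17 cells) in kidney TIL and 58671 CPM (53835 to 63825, 15 cells) in kidney PC. These 2 intervals overlap. The fold over T cells was 12.6 in kidney TIL and 3.59 in kidney PC, where the T cell level was itself high. Blood B cells stood further over their T cells, at 8.54-fold and 4.91-fold, than C1q-high cells of the TIL libraries labelled heart and liver. In liver PC, B cells without plasma cell genes held 26379 CPM against 32211 CPM in C1q-high macrophages.

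The gate of C1q-low macrophages does not separate them from monocytes, so in the blood libraries the class is named by its gate only. Its cells were spread more widely. They stood 30.6-fold over T cells in kidney PBMC (14996 CPM, 41 cells), 5.13-fold in kidney TIL (27682 CPM, 47 cells), 3.15-fold in liver PC (16751 CPM, 575 cells) and 2.36-fold in liver PBMC (9942 CPM, 837 cells). They stayed under 2-fold in the TIL libraries labelled heart (1.88-fold, 21908 CPM, 476 cells) and liver (1.82-fold, 30845 CPM, 545 cells), in heart PBMC (1.33-fold, 2676 CPM, 730 cells) and in kidney PC (1.28-fold, 20999 CPM, 26 cells). So 4 of 8 libraries passed 2-fold, and 3 of 8 with cells thinned to 500 UMIs, without the deepest 5% of cells or with mixed cells kept. Over barcodes under 500 UMIs 1 of 7 libraries passed, kidney PBMC at 7.58-fold. Kidney TIL was then 1.64-fold (shallow barcodes at 16924 CPM) and liver PBMC 1.11-fold (8919 CPM), so these 2 passes rest on the T cells as the background. The kidney PBMC level was uneven between cells. After thinning 61.0% of its 41 cells held a class II UMI, with a median of 3 and a 90th percentile of 21.

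Kupffer cells are the resident macrophages of the liver sinusoid. Kupffer-gated cells held 21015 CPM (20681 to 21352, 343 cells) in liver PC, a log2 ratio of 1.98 to T cells (0.82 with mixed cells kept). In the TIL library labelled heart, which carries the liver genes, they held 24226 CPM (23738 to 24721, 359 cells), a log2 ratio of 1.05, but 1.43-fold over barcodes under 500 UMIs (16904 CPM). In both libraries this was below the C1q-high macrophages. 14 cells of liver PC that met the dendritic gate held 39373 CPM (37094 to 41756), the highest of that library's classes.

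Endothelial cells were less than 2-fold over T cells in each library with more than 1 such cell. Their sum was 14063 CPM (12785 to 15434, 35 cells) and 18789 CPM (17349 to 20316, 35 cells) in the TIL libraries labelled heart and liver, 1.20-fold and 1.11-fold over T cells. In liver PC 11 cells gave 8956 CPM (7375 to 10777), a log2 ratio of 0.75 (0.47 to 1.02) that was 0.25 (-0.25 to 0.70) with cells thinned to 500 UMIs and 1.03 with mixed cells kept. None of the 10 members passed 2-fold in the TIL libraries labelled heart and liver, where 7 and 9 met the minimum of 10 UMIs in the class with the higher level and 1.35% and 1.69% of all genes that met it passed.

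The class II sum of tubule cells exceeded that of T cells in both kidney libraries. The sum was 26512 CPM (25150 to 27929, 66 cells) in kidney TIL and 27216 CPM (25845 to 28640, 85 cells) in kidney PC, and the intervals overlap. The T cell levels differed, so the fold was 4.92 in kidney TIL and 1.66 in kidney PC (log2 0.73). Over barcodes under 500 UMIs the folds were 1.57 and 1.09. Of the macrophage markers 2 of 5 had a UMI in the tubule cells of either library and none was 2-fold over T cells (2711 and 2630 CPM in kidney TIL, 9803 and 9635 CPM in kidney PC). After thinning, Cd74 was read in 93.9% of tubule cells of kidney TIL against 51.2% of its T cells (97.0% and 65.7% unthinned). In kidney PC these shares were closer, at 97.6% and 86.5% (97.6% and 91.9% unthinned). None of the 6 B cell and 5 Kupffer markers had a UMI in the tubule cells, and of the 5 dendritic markers 0 and 1 were 2-fold over T cells. Neither kidney library had a cell in the B, Kupffer or dendritic class, so these markers had no gated source there. The kidney PC ratio ranged from 0.50 with mixed cells kept to 1.65 in the 4 cells with at least 1000 UMIs. Barcodes under 500 UMIs held 16924 CPM in kidney TIL and 25054 CPM in kidney PC, and cells with no gate 15764 and 20890 CPM, so the kidney PC level of tubule cells was close to that of its shallow barcodes. The part of free RNA in these levels was not tested.

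A member was counted as higher when it was at least 2-fold over T cells with at least 10 UMIs in the class with the higher level. This minimum lets a member in through the group where it is high, so the counts, given out of all 10 members, are a description. The percentage beside each is the share that passed among all genes meeting the same minimum. In B cells 9 members were higher in heart PBMC (4.09% of all genes), 8 in liver PBMC (10.8%) and 6 in liver PC (1.8%), and 9 met the minimum in each. In C1q-high macrophages 6 were higher in the TIL library labelled heart (5.27%), 6 in the one labelled liver (6.48%) and 7 in liver PC (10.8%), where 8, 8 and 10 met it. In C1q-low macrophages 6 were higher in kidney PBMC (5.24%), kidney TIL (2.36%), liver PBMC (18.9%) and liver PC (9.35%), 2 and 1 in the TIL libraries labelled liver (3.27%) and heart (3.66%), 1 in heart PBMC (6.23%) and 0 in kidney PC (0.887%), with 6 to 9 that met it. Kupffer-gated cells passed for 6 in liver PC (10.4%) and 5 in the TIL library labelled heart (4.27%), of 9 and 8 that met it. Tubule cells passed for 7 in kidney TIL (6.94%) and for H2-DMb2 alone in kidney PC (6.78%), of 8 and 7 that met it. Some of these calls rest on few UMIs. H2-DMb2 had 10 UMIs in tubule cells and 7 in T cells of kidney PC, and H2-DMb1 had 14 in C1q-low macrophages and 3 in T cells of kidney PBMC. In C1q-low macrophages of kidney TIL, H2-DMb2 (1 UMI, T cells 12) and H2-Oa (2 UMIs, T cells 17) were left uncalled because their few UMIs gave the higher CPM.

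**Figure D2:**
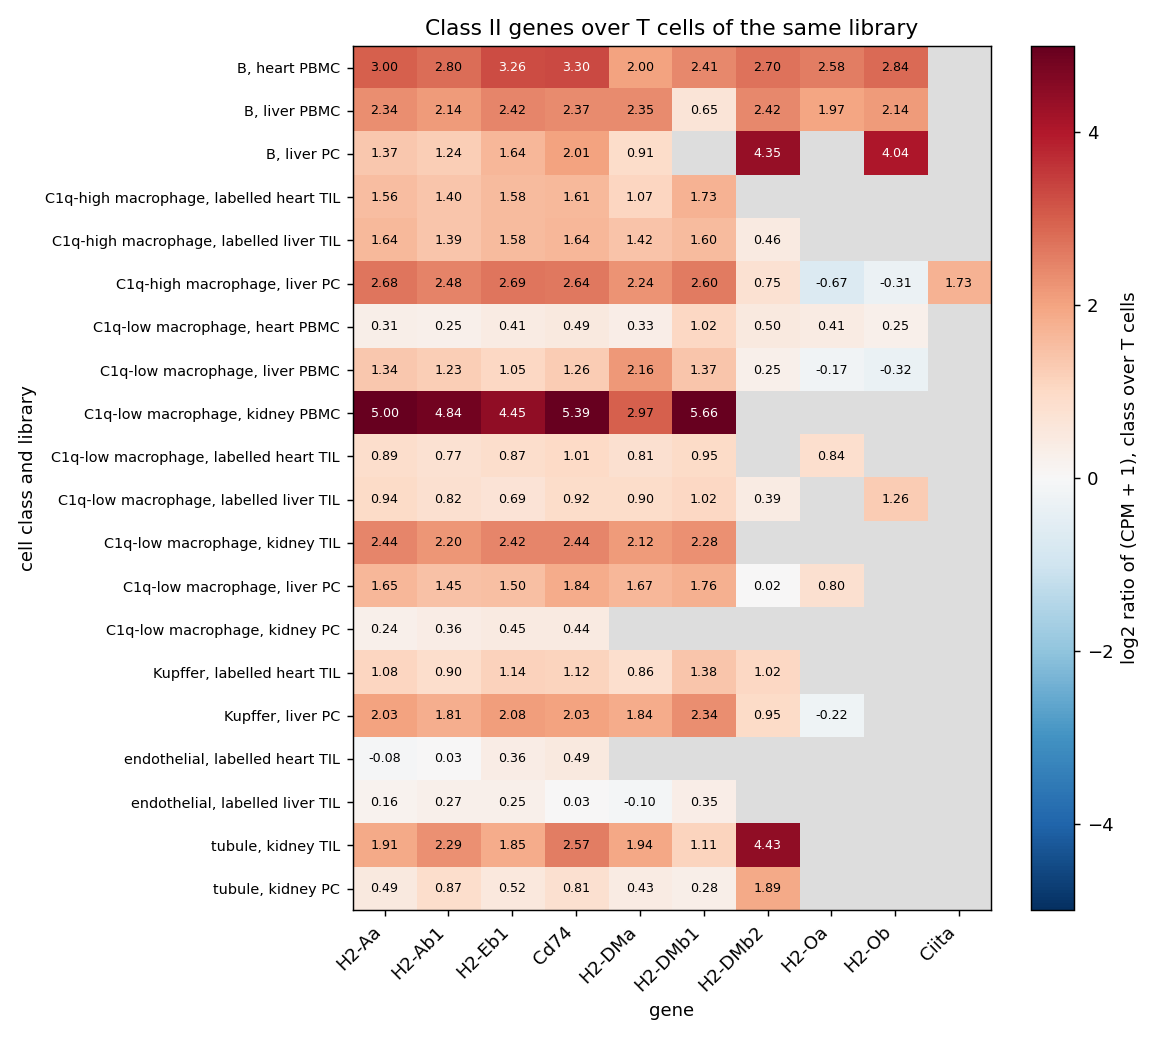
Log2 ratio of each class II gene (columns) in a cell class over T cells of the same library (rows), on CPM plus a pseudocount of 1; grey cells had under 10 UMIs in the class. H2-Oa and H2-Ob reach 1.97 to 2.84 in blood B cells and -0.67 and -0.31 in C1q-high macrophages of liver PC, while the chains and Cd74 are high in both.

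The chains of I-A and I-E rose together in both classes. A level is a CPM of UMIs, 1 per captured molecule, so it is not scaled by gene length. H2-Aa, the I-A alpha chain, stood at 2165 CPM in B cells of heart PBMC, 3068 in liver PBMC and 2126 in liver PC, and at 3934, 6502 and 5273 CPM in C1q-high macrophages of the TIL libraries labelled heart and liver and of liver PC. H2-Ab1, its beta partner, stood at 2748, 3649 and 3232 CPM in those B cells and at 9016, 12747 and 7635 CPM in those macrophages. H2-Eb1, the I-E beta chain, stood at 1881, 2582 and 2600 CPM in B cells and at 3897, 6712 and 5383 CPM in macrophages. In each of these groups H2-Ab1 was the highest of the 3 chains. Its share of the members' UMIs was 16.0% to 19.2% in B cells and 23.7% to 26.8% in C1q-high macrophages with at least 20 cells. T cells had 19.6% and 19.7% in heart and liver PBMC. Their share was 29.3% and 28.8% in the TIL libraries labelled heart and liver and 25.6% in liver PC. The share thus differed between blood and graft libraries in the T cells too.

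Cd74 was the most abundant member in every class and library with at least 20 cells. It took 46.6% to 52.9% of the members' UMIs in B cells and 38.7% to 45.9% in C1q-high macrophages. T cells had 45.8% and 44.2% in heart and liver PBMC. In the TIL libraries labelled heart and liver and in liver PC they had 43.4%, 40.9% and 37.5%. Among B cells, those of liver PBMC held 9646 CPM, those of heart PBMC 9083 CPM and those of liver PC 8043 CPM. In C1q-high macrophages it reached 15450 and 21587 CPM in the TIL libraries labelled heart and liver and 12456 CPM in liver PC, with T cells at 5065, 6918 and 1996 CPM. Tubule cells held 12733 CPM in kidney TIL and 13230 CPM in kidney PC, with T cells at 2141 and 7528 CPM.

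H2-DMa, the alpha chain of the peptide exchanger, was read at 322 CPM in B cells of heart PBMC, 569.6 CPM for liver PBMC and 287 CPM for liver PC. Its C1q-high macrophage levels were 585, 1033 and 724 CPM in the TIL libraries labelled heart and liver and in liver PC. In B cells it was 4.01-fold and 5.10-fold over T cells in the blood libraries of heart and liver and 1.88-fold in liver PC.

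The beta chains of H2-DM differed between B cells and C1q-high macrophages. H2-DMb2 made up 76.4% (67.2% to 84.1%) of the UMIs of H2-DMb1 and H2-DMb2 in B cells of heart PBMC, 71.8% (64.2% to 78.5%) for liver PBMC and 81.8% (59.7% to 94.8%) for liver PC. In C1q-high macrophages it made up 1.66% (0.611% to 3.57%) in the TIL library labelled heart, 2.05% (1.20% to 3.26%) in the one labelled liver and 2.86% (1.98% to 3.99%) in liver PC. The intervals of B cells and macrophages do not overlap. In CPM, H2-DMb2 stood at 384, 444 and 259 in the 3 B cell groups and at 13.0, 23.8 and 20.5 in the macrophages. H2-DMb1 stood at 118, 175 and 57.5 CPM in B cells and at 768, 1138 and 695 CPM in macrophages. Both genes have the X and Y box letters with equal spacing in the windows shown above.

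Kupffer-gated cells had H2-DMb2 shares of 3.91% (2.29% to 6.18%) in liver PC and 4.12% (1.99% to 7.44%) in the TIL library labelled heart. T cells of heart PBMC, at 72.9% (58.2% to 84.7%), were like its B cells, while T cells stood at 42.6% (28.3% to 57.8%) in liver PBMC and 9.35% (7.66% to 11.3%) in liver PC. C1q-low macrophages had 64.8% (54.1% to 74.6%) in heart PBMC and 25.3% (20.6% to 30.4%) in liver PBMC, against 2.97% (1.49% to 5.26%) in liver PC, and neutrophils 70.3% (63.3% to 76.6%) and 50.5% (44.8% to 56.1%) in the same blood libraries. In heart PBMC the share was thus similar in all these classes. Tubule cells had 68.8% (49.99% to 83.9%, 22 of 32 UMIs) in kidney TIL and 35.7% (18.6% to 55.9%, 10 of 28 UMIs) in kidney PC, with T cells at 17.4% and 15.2%. H2-DMb2 was also the member with the largest ratio in tubule cells of kidney TIL, at 411 CPM and a log2 ratio of 4.43 (22 UMIs). The genes are close copies: of the stretches of 50 bases in the last 500 of the longest H2-DMb1 transcript, 20.4% occur in H2-DMb2, and none the other way. The authors removed reads with several alignments, and grafts of BALB/c were aligned to a C57BL/6 reference, so the split between the copies is uncertain.

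**Figure D3:**
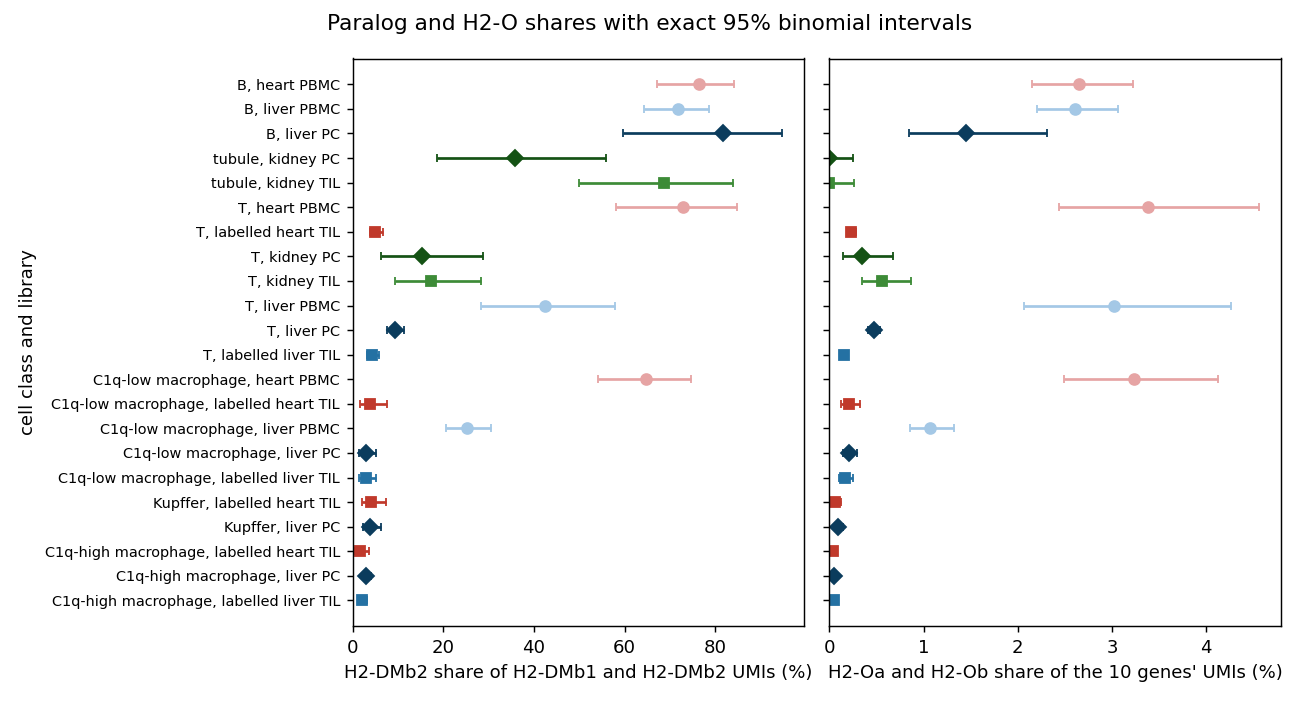
Left, H2-DMb2 as a percentage of H2-DMb1 and H2-DMb2 UMIs. Right, H2-Oa and H2-Ob as a percentage of the 10 genes' UMIs, both with exact 95% binomial intervals for groups with at least 20 H2-DMb UMIs. B cells lie at 71.8% to 81.8% on the left and C1q-high macrophages at 1.66% to 2.86%; tubule cells have none of the H2-O UMIs on the right.

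Both chains of H2-O stood higher in B cells than in macrophages. In the B cells of heart PBMC H2-Oa stood at 223 CPM (47 UMIs), in those of liver PBMC at 228 CPM (60 UMIs) and in those of liver PC at 86.2 CPM (6 UMIs). H2-Ob stood there at 232 CPM (49 UMIs), 311 CPM (82 UMIs) and 158 CPM (11 UMIs). In C1q-high macrophages H2-Oa was at 6.47, 12.6 and 9.92 CPM and H2-Ob at 4.32, 9.80 and 6.82 CPM, in the TIL libraries labelled heart and liver and in liver PC. These macrophage levels did not reach 2-fold over T cells of their library in any of the 3.

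As a share of the members' UMIs, H2-O made up 2.65% (2.15% to 3.23%), 2.61% (2.20% to 3.07%) and 1.45% in those B cells and 0.0320%, 0.0450% and 0.0520% in the macrophages. T cells and neutrophils of heart PBMC had shares of 3.38% and 3.10%, like the B cells of that library, at a summed level of 2009 and 2446 CPM. Tubule cells had no UMI of H2-Oa or H2-Ob in 1418 class II UMIs of kidney TIL and 1477 of kidney PC, which is under 56.1 and 55.3 CPM per gene when a count of 0 is given its limit of 3. Endothelial cells had 1 such UMI in 444 in the TIL library labelled heart (0.225%, T cells 0.233%) and none in 629 in the one labelled liver (T cells 0.156%).

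Plasma cells are known to shut down class II, and the B cell gate takes them in. 13 of the 35 B cells of liver PC had at least 3 UMIs of Xbp1, Mzb1 and Sdc1, and these held 9524 CPM (8585 to 10539) of class II RNA against 26379 CPM (24581 to 28275) in the other 22. Their Jchain level, a plasma cell gene not used in the split, was 28776 CPM against 496 CPM, and their median depth 2679 against 1289 UMIs. In the TIL library labelled liver the values were 6348 CPM (5176 to 7706, 10 cells) and 29665 CPM (24803 to 35202, 7 cells). All 17 B cells of that library together held 11374 CPM (9960 to 12932), below its T cells at 16926 CPM. H2-Oa had no UMI in the plasma-type cells of either library, which at the limit of 3 counts allows 187 CPM in the TIL library labelled liver and 76.2 CPM in liver PC, and H2-Ob had 0 and 1. The depth does not show a loss of H2-O in these cells. In blood the split gave 6 plasma-type cells in liver PBMC, with 17229 CPM (14708 to 20058) and 3 UMIs of H2-Oa (311 CPM), and 3 in heart PBMC, with 12791 CPM (9096 to 17486).

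Ciita was hardly read. All 8 libraries together held 178 of its UMIs in cells that passed, against 301860 of Cd74. It reached 12 UMIs in C1q-high macrophages of liver PC, 7.44 CPM (3.84 to 13.0) against 1.54 CPM in T cells, a log2 ratio of 1.73. B cells had 2 UMIs of it in heart PBMC, 1 for liver PBMC and none for liver PC. Tubule cells had 2 UMIs in kidney TIL and none in kidney PC. The depth does not allow Ciita to be ranked between cell classes.

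C1q-high and C1q-low macrophages of the same library were compared next. The 6 abundant members were higher in C1q-high cells in all 5 graft libraries. The sum was 1.92-fold higher in liver PC (log2 0.94, 0.92 to 0.97), 1.54-fold and 1.61-fold in the TIL libraries labelled heart and liver (log2 0.62 and 0.69), 2.46-fold in kidney TIL and 2.79-fold in kidney PC (log2 1.30 and 1.48). In liver PC the log2 ratio was 1.19 for H2-Eb1, 1.03 for H2-Ab1, 1.02 for H2-Aa, 0.80 for Cd74, 0.83 for H2-DMb1 and 0.57 for H2-DMa. 3 of the 10 members passed 2-fold there, the 3 chains, against 5.01% of all genes. None did in the TIL libraries labelled heart (4.38%, 7 members with 10 UMIs or more in the higher class) and liver (6.94%, 8 members).

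H2-Oa was lower in C1q-high cells of liver PC and of the TIL library labelled heart. It stood at 9.92 CPM (16 UMIs) in C1q-high and 29.3 CPM (27 UMIs) in C1q-low macrophages of liver PC, a log2 ratio of -1.47 (-2.55 to -0.62). In the TIL library labelled heart it stood at 6.47 CPM (3 UMIs) and 35.4 CPM (14 UMIs), a log2 ratio of -2.28 (-4.89 to -0.61). In the one labelled liver it stood at 12.6 CPM (9 UMIs) and 13.6 CPM (6 UMIs), a log2 ratio of -0.10 (-1.76 to 1.66). The kidney libraries held too few UMIs for a direction, none against 60.2 CPM in kidney TIL and 108 CPM (1 UMI) against none in kidney PC. T cells of liver PC held it at 16.4 CPM.

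**Figure D4:**
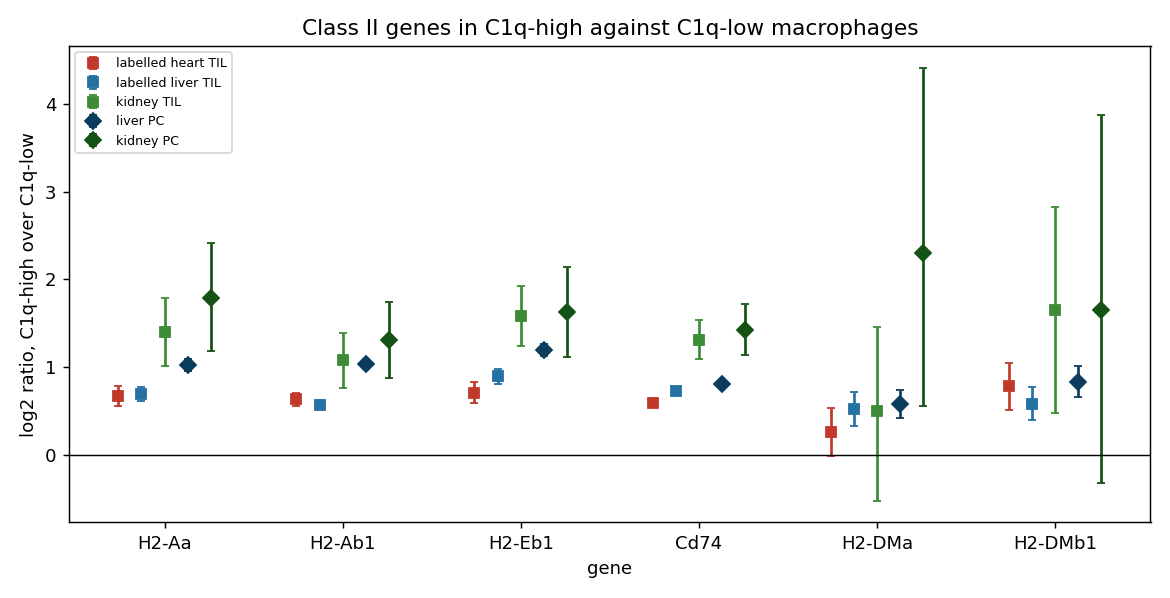
Log2 ratio of C1q-high over C1q-low macrophages for the 6 abundant class II genes in the 5 graft libraries, with exact 95% intervals. All points lie above 0; the intervals of H2-DMa in the TIL library labelled heart and in kidney TIL and of H2-DMb1 in kidney PC reach below it.

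Across organs the order of the C1q-high levels was kidney TIL, kidney PC, the TIL library labelled liver, the one labelled heart and liver PC. Liver PC stood below kidney PC by a log2 ratio of -0.87 (-0.99 to -0.74), and the T cells of these libraries differed by -1.62 in the same direction. The TIL library labelled heart stood below kidney TIL by -1.02 (-1.13 to -0.91), and exchanging it for the TIL library labelled liver gave -0.45 (-0.56 to -0.35), while stricter gates gave -1.62. The T cells of the TIL libraries labelled heart and liver lay above those of kidney TIL, by log2 ratios of 1.11 and 1.65. The kidney values rest on 17 and 15 cells. B cells of liver PBMC stood above those of heart PBMC, and B cells of heart PBMC and liver PC differed by a log2 ratio of 0.03 (-0.07 to 0.12), which did not hold without the cells carrying plasma cell genes (17231 and 26379 CPM). Fewer class II transcripts per cell and fewer cells of one kind inside a gate cannot be told apart in these sums.

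The I-E alpha chain gene is annotated in the C57BL/6 reference as H2-Ea-ps, a polymorphic pseudogene (chr17:34341959-34344645, minus strand). As background, C57BL/6 does not express it because its promoter is deleted, while BALB/c does. It was listed in none of the 3 PBMC tables, which together held none of its UMIs (under 0.169 CPM at the limit of 3 counts) beside 10654 of H2-Eb1. The graft libraries held 31 UMIs in the one labelled heart, 1 in the one labelled liver, 85 in kidney TIL, 108 in liver PC and 124 in kidney PC. In the 2 kidney libraries, 67 and 107 of these lay in barcodes under 500 UMIs.

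In liver PC, Kupffer-gated cells held 38 of the 108 UMIs, in 20 of 343 cells, or 52.9 CPM (37.4 to 72.6). T cells held 2.38 CPM (20 UMIs), C1q-high macrophages 1.86 CPM (3 UMIs) and C1q-low macrophages 5.42 CPM (5 UMIs). The Kupffer level was 22.3-fold (12.6 to 40.4) that of the T cells and 28.4-fold (9.02 to 144) that of the C1q-high macrophages, although the latter held more H2-Eb1 (5383 against 3509 CPM). Within the gate, 77 cells with a Clec4f UMI held 34 of the 38 UMIs, 176 CPM (122 to 246), and 266 cells with Cd5l alone held 7.62 CPM (2.08 to 19.5). The members' sum was 21876 CPM in the 77 cells and 20697 CPM in the 266. Of the 77, 39 cells had a UMI of both genes. These 39 held 33 of the H2-Ea-ps UMIs and a higher members' sum of 26422 CPM (25494 to 27376). Vsig4, a Kupffer marker outside the gate, stood at 796 CPM in the 77 cells and 41.9 CPM in the 266.

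In the TIL library labelled heart, Kupffer-gated cells held 8 of the 31 UMIs, in 6 of 359 cells, or 20.7 CPM (8.92 to 40.7), and C1q-high macrophages none. Of these, 5 lay in the 78 cells with a Clec4f UMI and 3 in the 281 with Cd5l alone. Tubule cells of kidney TIL held 9 UMIs, in 6 of 66 cells, or 168 CPM (76.9 to 319). T cells of that library held 3.01 CPM (2 UMIs), so the ratio of tubule to T cells was 55.9 (11.6 to 531). With these T cells set to the limit of 3 counts the ratio was 37.2. Tubule cells of kidney PC held 3 UMIs, 55.3 CPM, against 42.1 CPM in T cells (6 UMIs), a ratio of 1.31 (0.212 to 6.14). Its C1q-low macrophages held 2 UMIs (120.3 CPM, 26 cells), too few for a ranking. Without barcodes found in more than 1 library the counts were 36 and 8 in the Kupffer-gated cells of liver PC and of the TIL library labelled heart, 8 in tubule cells of kidney TIL and 3 in those of kidney PC.

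**Figure D5:**
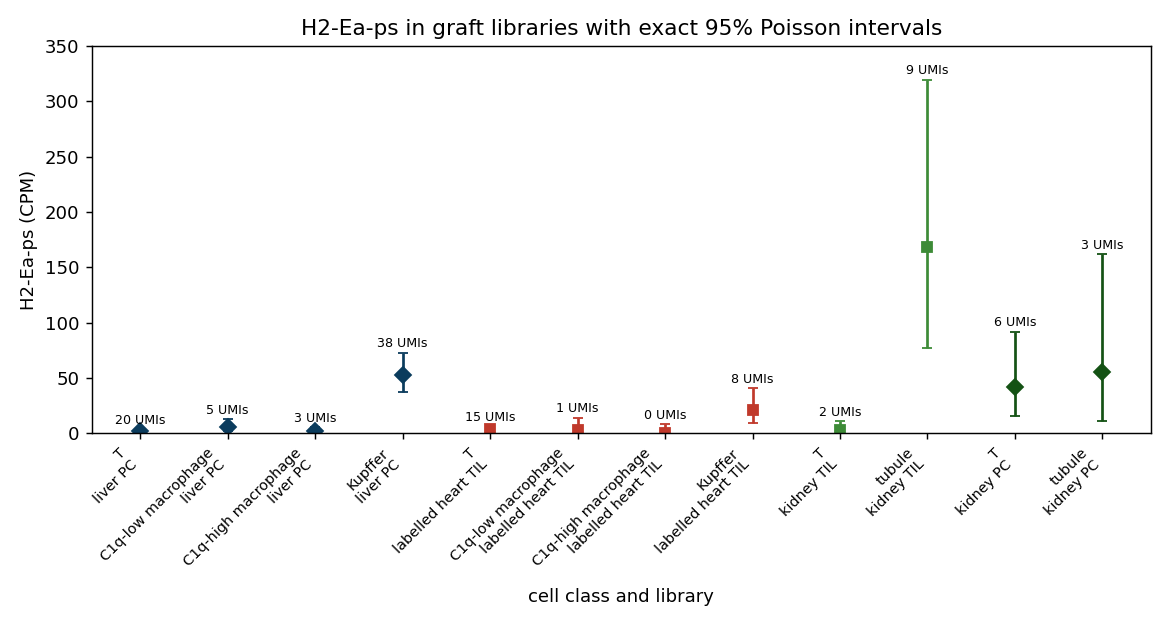
H2-Ea-ps level (CPM) in cell classes of 4 graft libraries with exact 95% Poisson intervals and UMI counts above the points. Tubule cells of kidney TIL stand at 168 CPM (T cells 3.01) and Kupffer-gated cells of liver PC at 52.9 CPM (T cells 2.38), while tubule cells (55.3 CPM) and T cells (42.1 CPM) of kidney PC overlap.

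The other genes of the class II pathway were counted from a list of 32 (regulators, endosomal proteases, ubiquitin ligases and costimulators). In C1q-high macrophages of liver PC, 13 were at least 2-fold over T cells and 29 met the minimum of 10 UMIs (10.8% of all genes that met it passed). The higher ones included the proteases Ctss, which cuts Cd74, at 5662 CPM (T cells 963), Lgmn at 1017 CPM (T cells 142) and Ctsl at 470 CPM (T cells 97.4), and the costimulator Cd40 at 116 CPM (T cells 15.2). March1, the ligase that removes class II from the surface, stood at 62.0 CPM (T cells 11.2). Nfyb, a subunit of the factor that binds the Y box, stood at 28.5 CPM (T cells 89.9). None of 10 class I presentation genes reached 2-fold there.

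In B cells of heart PBMC 5 of 31 listed pathway genes were higher (17 met the minimum, 4.09% of all genes). They were led by Cd83, which protects class II from March1, at 94.8 CPM (20 UMIs, T cells 9.95 CPM). In B cells of liver PBMC 9 of 31 were higher (19 met it, 10.8% of all genes). Cd83 stood at 68.4 CPM (18 UMIs, T cells 4.11 CPM) and Pax5, the B cell identity factor, at 38.0 CPM (10 UMIs, T cells 4.11 CPM). In T cells of that library 4.11 CPM is 1 UMI, so both ratios rest on few counts. Neutrophils of liver PBMC had 12 of 31 higher (23 met it, 20% of all genes). Cd83 and Pax5 were among these 12, so neither call was particular to the B cells of that library. Class I genes passed in the B cells of neither library (0 of 10 in both).

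Tubule cells of kidney TIL had 3 of 32 pathway genes higher (11 met the minimum, 6.94% of all genes), among them Ctsl at 841 CPM (T cells 43.7) and Lgmn at 337 CPM (T cells 22.6). Here 4 of 10 class I genes were higher too (9 met it), H2-D1 at 5516 CPM (T cells 1229), B2m at 13929 CPM (T cells 4364), H2-K1 at 2748 CPM (T cells 1180) and Tapbp at 262 CPM (T cells 104). In kidney PC 1 of 31 listed pathway genes and 2 of 10 class I genes were higher in tubule cells (11 and 8 met it, 6.78% of all genes). Ctsl and Lgmn are also abundant in kidney tubules at rest, as background.

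Levels, as log2 of CPM plus 1, were compared with the members' sum over the 38 pairs of class and library with at least 20 cells, for 9978 genes. Apart from the members and the genes of the gates, those with the highest Pearson r were Ctsh (0.93), Ctsz (0.90), Grn (0.86), Lgmn (0.86) and Rab7b (0.84). The gate genes were left out of this ranking. Lgmn is also on the list of pathway genes. The pairs share libraries and their background, so r is a description. Among the members Cd74, H2-Ab1, H2-Eb1 and H2-Aa followed the sum at 0.98 or more, which they largely make up. H2-DMb1 and H2-DMa followed it at 0.92 and 0.90, and H2-DMb2, H2-Ob and H2-Oa at 0.20, 0.15 and -0.03.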

How the data were processed

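Each deposited table held unnormalized counts of UMIs, genes by barcodes. The authors demultiplexed reads with bcl2fastq, discarded reads with low barcode quality, aligned them with STAR to GRCm38, removed reads with several alignments, counted against a GENCODE annotation whose release is not given in the sources used here, and merged UMIs differing at a single base. Cells of 500 UMIs or more were gated here by marker UMIs, and cells meeting more than 1 of the T, B, myeloid, endothelial and tubule gates were left out, with no doublet caller and, unlike the authors, no filter on mitochondrial UMIs (tried as an alternative). UMIs were summed per class and library as CPM with exact Poisson intervals. Shares had exact binomial (Clopper-Pearson) intervals. Ratios used a pseudocount of 1 CPM, except the ratios of H2-Ea-ps, which used none. Their conditional binomial intervals were made without a pseudocount. Shares of cells were thinned to 500 UMIs with seed 0. With 1 library per condition no test was made and samples were grouped by their labels. All 10 members were named, with the 32 pathway and 10 class I genes by count and their most extreme ratios. The values of 1 pathway gene are not reported here. Members and lists were chosen with earlier results of these data known. The functions were tested on simulated data. Python 3.11.15, numpy 2.4.6, scipy 1.17.1, pandas 2.3.3 and matplotlib 3.10.9 were used.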

Additional observations from a re-analysis of the deposited data

Results flagged for a closer look

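Barcodes under 500 UMIs were left out of the cell classes and served only as a second reading of the background, and class II RNA was read in them too. Its summed level there was 3574 CPM in heart PBMC, 8919 CPM in liver PBMC and 1978 CPM in kidney PBMC. In the graft libraries it was 16904 CPM in the TIL library labelled heart, 23385 CPM in the TIL library labelled liver, 16924 CPM in kidney TIL and 25054 CPM in kidney PC. T cells that passed stood lower in each of these 7 libraries, from 489 CPM in kidney PBMC to 16926 CPM in the TIL library labelled liver. Liver PC held no barcode under 500 UMIs.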

How the results depend on the processing

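No paired analysis was possible between replicates of the conditions because each condition had 1 library. Classes were compared within each library, and no test over libraries was made. Of 87 recomputed values 64 stayed within the counting interval or 1.5 times the count, 23 moved and 0 changed direction. Counts of libraries were compared without their denominators. B cells at 2 of 4 therefore counted as unchanged, and C1q-high macrophages at 1 of 1 and 5 of 5 as moved. The log2 ratio of Kupffer-gated over T cells in liver PC was 1.68 with cells thinned to 500 UMIs, 1.70 as a mean over cells, 2.10 with stricter gates, 0.82 with mixed cells kept, 1.83 without the deepest 5% of cells and 2.04 with Clec4f alone as the gate. For endothelial cells of liver PC it was 0.25 thinned, 0.47 as a mean over cells and 1.03 with mixed cells kept. For tubule cells of kidney PC it was 1.65 from 1000 UMIs (4 cells), 0.62 thinned, 1.02 with stricter gates, 0.50 with mixed cells kept and 0.61 without the deepest 5%. Between C1q-high macrophages, liver PC over kidney PC was -1.03 with mixed cells kept. The TIL library labelled heart over kidney TIL was -1.62 with stricter gates, -0.87 with mixed cells kept and -0.45 with the heart and liver labels exchanged. C1q-high macrophages passed 2-fold in 5 of 5 libraries with mixed cells kept and in 1 of 1 without the TIL libraries labelled heart and liver, and B cells in 2 of 4 with mixed cells kept. C1q-low macrophages passed in 3 of 8 libraries thinned, without the deepest 5% and with mixed cells kept. With barcodes under 500 UMIs in place of T cells, C1q-high macrophages passed in 1 of 2 libraries, C1q-low macrophages in 1 of 7, and the kidney PC tubule ratio was 0.12. The cause of these moves was not tested. From 1000 UMIs the C1q-high ratios to the kidney libraries could not be computed, for lack of cells. The kidney classes of 15 and 17 cells and the 178 UMIs of Ciita set the limits of depth. The gate on Clec4f alone, the shallow barcodes as background and the omission of both TIL libraries were chosen after seeing the data.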
